A study of Mus musculus with 4 samples.

Results

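The 10 CC chemokine ligands Ccl2, Ccl3, Ccl4, Ccl5, Ccl6, Ccl7, Ccl8, Ccl9, Ccl12 and Ccl24 were followed to the cells that carried their RNA in YUMMER1.7 tumors. They were chosen by name, and all 10 were found among the 32285 genes of the count tables. YUMMER1.7 is a mouse melanoma line with a high load of mutations, and it was grown under the skin of young adult male wild-type C57BL/6J mice. Mice received the isotype control (IgG1), 10 mg/kg of anti-PD-1 (the antibody RMP1-14), 20 mg/kg of anti-MIF (the antibody IIID.9) or both (anti-PD-1/anti-MIF). The short cohort received 2 doses over 1 week and its tumors were taken on day 14. The long cohort received 4 doses over 2 weeks, and its tumors were taken on day 21. MIF is a cytokine that binds CD74, and PD-1 is an inhibitory receptor of T cells.

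Each cohort was 1 pooled single-cell library in which a hashtag antibody marked the treatment, so an arm of a cohort was 1 sample, and the mice within an arm could not be told apart. Sorted CD45+ and CD45- cells were recombined at 80% and 20%, so shares of cells do not describe the whole tumor. After demultiplexing and quality filters, 1671 cells of the long cohort were kept (204 isotype, 319 anti-PD-1, 879 anti-MIF and 269 anti-PD-1/anti-MIF), and 3119 of the short cohort (745, 1370, 556 and 448). An arm held between 1563467 and 8712647 unique molecular identifiers (UMIs), each of which counts 1 captured RNA molecule. The median over all barcodes was 8579.5 UMIs per cell in the long and 5912 in the short cohort. The 2 libraries had 20 cell barcodes in common.

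Cells were assigned by marker RNA to 4 gates, which were T cells (Cd3e), natural killer (NK) cells (Ncr1), mature dendritic cells (Ccr7 and Fscn1) and monocytes/macrophages (Lyz2 with Ly6c2 or C1qb). The gates held 252, 34, 102 and 824 cells of the long cohort, and 287, 102, 46 and 1861 cells of the short cohort, in that order. A further 434 and 790 cells met no gate, and 25 and 33 met several and were left out of the 4. Levels are given as CPM, which are UMIs of a gene per 1000000 UMIs of the summed cells of 1 gate in 1 arm. Markers that the gates did not use fell where the names put them. Cd3g, a subunit of the T cell receptor complex, stood at 1632 CPM in the T gate of the long and 1119 CPM of the short cohort, against 0.970 and 1.02 CPM in monocytes/macrophages. Gzma, a granzyme of killer cells, stood at 5726 and 5531 CPM in the NK gate. Csf1r, the receptor that sustains macrophages, stood at 469 and 400.1 CPM in monocytes/macrophages. The pigment cell markers Mlana, Dct, Tyr, Tyrp1 and Sox10 were at 0 UMIs in every gate and in the ungated cells of both cohorts, and Pmel did not exceed 2 UMIs in a gate. Low pigment gene RNA does not show that melanoma cells were missing, since CD45- cells were loaded, and whether the ungated cells held melanoma cells was not tested.

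CC chemokines are small secreted proteins that draw leukocytes along a concentration gradient through G protein-coupled CCR receptors. CCL2, CCL7 and CCL12 act through CCR2, CCL7 also through other receptors, and mouse CCL8 through CCR8. The CCR2 ligands bring monocytes into inflamed tissue and tumors. CCL3 and CCL5 act through CCR1 among other receptors, and CCL3, CCL4 and CCL5 are made by activated lymphocytes as well as by myeloid cells. CCL6 and CCL9 are rodent ligands of CCR1, and CCL24 is an eosinophil attractant that acts through CCR3.

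On the mouse build GRCm38, 9 of the 10 genes lay in 2 clusters of chromosome 11. The first cluster spanned 81.2 kb and held Ccl2 at chr11:82035571-82037453 (plus strand), Ccl7 at chr11:82045712-82047525 (plus strand), Ccl12 at chr11:82101845-82103400 (plus strand) and Ccl8 at chr11:82115185-82116799 (plus strand). The second spanned 139 kb and held Ccl5 at chr11:83525778-83530518 (minus strand), Ccl9 at chr11:83572919-83578636 (minus strand), Ccl6 at chr11:83587882-83593087 (minus strand), Ccl3 at chr11:83647844-83649355 (minus strand) and Ccl4 at chr11:83662584-83664683 (plus strand). Ccl24 lay apart at chr5:135569937-135573049 (minus strand).

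RefSeq promoter sequence (GRCm38.p6) was at hand for Ccl12, Ccl8, Ccl9, Ccl6 and Ccl3, and the promoters of the other 5 members were not analysed here. The 250 bases before the start are shown on the gene's own strand for the neighbors Ccl12 and Ccl8 of the first cluster and the neighbors Ccl9 and Ccl6 of the second, because each pair shared a source cell in the results that follow. Ccl12 is shown from chr11:82101595-82101844, Ccl8 from chr11:82114935-82115184, Ccl9 from chr11:83578637-83578886 and Ccl6 from chr11:83593088-83593337. Capitals mark matches to the motifs searched.
Ccl12: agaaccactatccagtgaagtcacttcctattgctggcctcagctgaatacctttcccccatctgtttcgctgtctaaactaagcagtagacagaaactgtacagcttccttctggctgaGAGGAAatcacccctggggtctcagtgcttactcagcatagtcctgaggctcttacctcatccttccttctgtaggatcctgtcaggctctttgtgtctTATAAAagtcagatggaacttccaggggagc
Ccl8: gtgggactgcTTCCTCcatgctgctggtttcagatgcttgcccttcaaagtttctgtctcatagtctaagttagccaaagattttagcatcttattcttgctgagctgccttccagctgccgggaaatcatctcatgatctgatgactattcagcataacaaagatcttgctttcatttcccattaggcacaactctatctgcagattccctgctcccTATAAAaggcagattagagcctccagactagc
Ccl9: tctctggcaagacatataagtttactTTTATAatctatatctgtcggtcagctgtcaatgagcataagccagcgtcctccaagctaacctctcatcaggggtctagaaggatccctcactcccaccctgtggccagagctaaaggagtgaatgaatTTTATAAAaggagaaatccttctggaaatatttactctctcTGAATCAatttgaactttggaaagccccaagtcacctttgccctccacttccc
Ccl6: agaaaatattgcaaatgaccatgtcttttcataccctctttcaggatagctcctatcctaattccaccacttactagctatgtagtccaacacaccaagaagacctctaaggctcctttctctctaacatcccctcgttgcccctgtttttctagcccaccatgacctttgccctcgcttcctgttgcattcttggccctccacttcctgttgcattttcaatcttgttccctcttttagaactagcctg

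The motifs, searched on both strands, were TATAAA (the TATA box, in 12.4% of 32851 promoters of this length), GAGGAA (a core of PU.1, the myeloid lineage factor, 23.3%), GGGA and TTCC with 2 bases between them (NF-kB, 1.21%), GAAA repeated with 2 bases between (an interferon response element, 2.98%), TGANTCA (AP-1, 6.75%) and TTGCNNAA (C/EBP, 9.56%). Ccl12 held TATAAA 31 to 26 bases and GAGGAA 130 to 125 bases before its start. Ccl8 held TATAAA 32 to 27 bases before its start, at nearly the same place as in Ccl12, and TTCCTC, which is GAGGAA on the other strand, 240 to 235 bases before it. In Ccl9, TGAATCA lay 53 to 47 bases before the start. Ccl9 also had the TATA letters further out, from 94 to 87 bases (both strands, overlapping) and from 224 to 219. Ccl3, which is not printed, held TTCCTC 33 to 28 bases before its start, and Ccl6 held none of the 6 motifs. Compared base by base in place, Ccl12 and Ccl8 were identical at 90 of 250 positions (36.0%), and the other pairs of these 5 promoters at 20.0% to 28.0%.

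The source cell of each ligand was asked first. Most RNA of the monocyte attractants was counted in monocytes/macrophages. This gate held 87.9% ± 11.1 (SD, n = 8 arms) of the Ccl2 UMIs of an arm, 79.8% ± 21.8 (SD, n = 8 arms) of the Ccl7 UMIs and 96.0% ± 4.82 (SD, n = 8 arms) of the Ccl12 UMIs. For Ccl6 the share was 80.5% ± 7.62 (SD, n = 8 arms) and for Ccl9 86.7% ± 4.67 (SD, n = 8 arms). Ccl3 and Ccl4 were divided between monocytes/macrophages, with 57.5% ± 23.0 (SD, n = 8 arms) and 51.7% ± 17.3 (SD, n = 8 arms), and T cells, with 24.1% ± 27.7 (SD, n = 8 arms) and 24.0% ± 25.4 (SD, n = 8 arms). Ccl5 had no main source, with 27.5% ± 18.5 (SD, n = 8 arms) in mature dendritic cells, 27.1% ± 17.6 (SD, n = 8 arms) in T cells, 19.6% ± 16.3 (SD, n = 8 arms) in monocytes/macrophages and 12.3% ± 7.59 (SD, n = 8 arms) in NK cells. A share depends on how many cells of each kind were loaded, which a level within a gate does not.

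**Figure D1:**
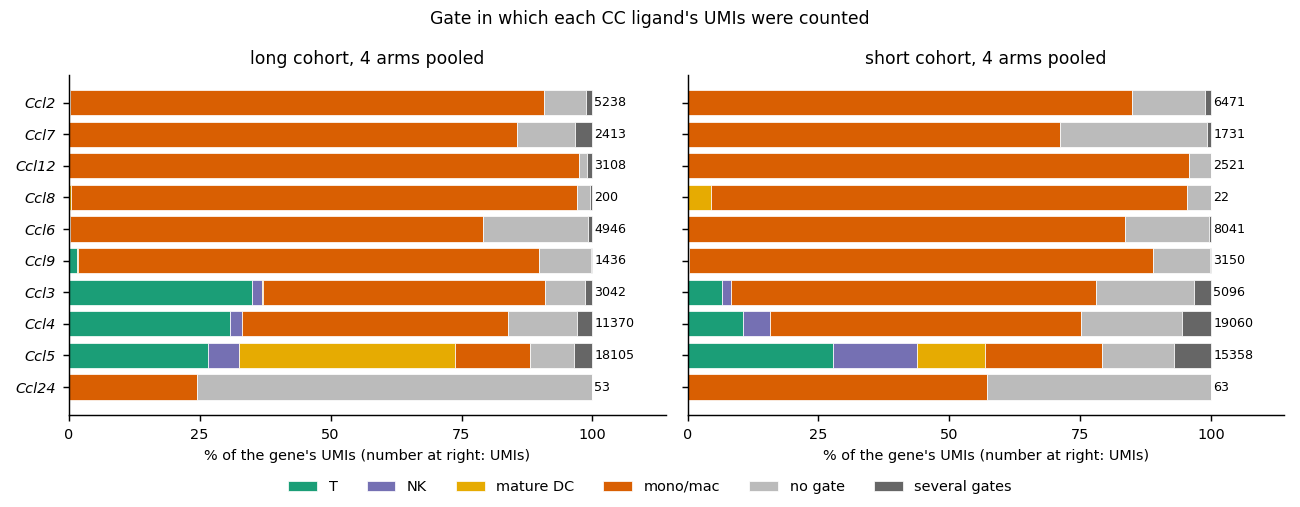
Share of each CC ligand's UMIs (x axis, percent) counted in the 4 gates, in ungated cells (no gate) and in cells that met several gates, for the long cohort (left) and the short cohort (right), with the 4 arms pooled and the number of UMIs at the right of each bar. Ccl2, Ccl7, Ccl12, Ccl6 and Ccl9 lay mostly in monocytes/macrophages, whereas Ccl5 was spread over all 4 gates.

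Ccl2, the main ligand of the monocyte receptor CCR2, was given by arm in the order isotype, anti-PD-1, anti-MIF and their combination, as are all values by arm that follow. Its level in monocytes/macrophages was 725, 630.5, 451 and 551 CPM in the long cohort and 426, 400.1, 412 and 334 CPM in the short cohort. T cells of an arm did not exceed 6.80 CPM, so the 2 gates did not overlap in any arm. Summed over the arms, Ccl2 stood at 446 CPM in monocytes/macrophages (10231 UMIs) and at 2.49 CPM in T cells (7 UMIs), a 179-fold difference. T cells were lower in 8 of 8 arms. Ccl2 passed the filter on low counts through monocytes/macrophages alone, so no p is given for it. In the edgeR fit over 31 sums of gate and arm, 67.6% of the 4544 genes tested were called between T cells and monocytes/macrophages, 33% as higher and 34.6% as lower in T cells, so a call by itself marks little here. The share of monocytes/macrophages ranged from 68.4% to 96.9% between arms.

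Ccl7, which binds several CCR receptors, and Ccl12, a rodent CCR2 ligand, were found in the same gate, and the lowest arm share was 45.0% for Ccl7 and 85.5% for Ccl12. In monocytes/macrophages Ccl7 stood at 144, 386, 221 and 141 CPM in the long cohort and 117, 78.5, 92.9 and 67.8 CPM in the short cohort. Ccl12 stood there at 369, 402, 310.3 and 309 CPM in the long cohort and 196, 164, 112 and 279 CPM in the short cohort. T cells held 1 UMI of Ccl7 and 2 of Ccl12 in all. Mature dendritic cells and NK cells held none of either gene. A count of 0 allows up to 3 UMIs over the gate, so monocytes/macrophages were at least 61.9-fold higher than mature dendritic cells for Ccl7 and at least 102-fold higher for Ccl12, and at least 41.4-fold and 68.4-fold higher than NK cells. These bounds and the intervals of counts cover counting error only. Ccl8, the CCR8 ligand, was rare, with 193 UMIs in monocytes/macrophages of the long and 20 of the short cohort. The arms of the long cohort held 0, 3.52, 31.3 and 2.11 CPM of Ccl8 and those of the short cohort 4.71, 0.174, 0.381 and 0.585 CPM, so the anti-MIF arm of the long cohort stood above all others. In that arm, 144 of 186 Ccl8 UMIs came from 1 cell, and the level without this cell was 7.09 CPM (chosen after seeing the data).

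Ccl6 and Ccl9, the CCR1 ligands of rodents, were likewise found in monocytes/macrophages. Their Ccl6 level was 794, 351, 332 and 638 CPM in the long cohort and 575, 477, 484 and 377 CPM in the short cohort. For Ccl9 it was 239, 106, 113 and 201 CPM in the long cohort and 246, 185, 229 and 142 CPM in the short cohort. T cells reached at most 11.3 CPM of Ccl6. In T cells, 23 UMIs of Ccl9 were counted in 6 cells of the long cohort, with 13 in 1 cell and 22 in the isotype arm. Monocytes/macrophages were 163-fold above T cells for Ccl6 and 21.6-fold for Ccl9 over the arms, and the Ccl9 value rests on that arm. Its edgeR log2 fold change of T cells against monocytes/macrophages was -4.70, and -8.31 to -4.27 with 1 arm left out. NK cells had no Ccl6 UMI and 7 of Ccl9. Mature dendritic cells held 8 UMIs of Ccl6, so monocytes/macrophages were 74.8-fold higher, and 3 of Ccl9. Outside the gates, cells with the neutrophil markers Csf3r and S100a8 or S100a9 (29 in the long and 41 in the short cohort) held 251 of 995 and 174 of 1284 ungated Ccl6 UMIs.

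Free RNA in droplets can give UMIs to cells that do not express a gene, so these low levels were set beside genes that T cells lack. In the T gate, the macrophage genes C1qa, C1qc and Csf1r stood at 0.406%, 0.467% and 1.08% of their monocyte/macrophage level in the long cohort, and the short cohort had 1.35%, 0.217% and 1.61%. Ccl2 in T cells stood at 0.497% and 0.604% of its monocyte/macrophage level, Ccl6 at 0.907% and 0.328%, Ccl7 at 0.286% and 0%, and Ccl12 at 0.389% and 0%. These ligands in T cells did not exceed the highest of the reference genes in either cohort, although Ccl2 and Ccl6 lay above 2 of the 3 in the long cohort. Low expression and free RNA were not tested apart. Ccl9 in T cells was an exception, at 10.7% of its monocyte/macrophage level in the long cohort, above all 3 reference genes, and at 0% in the short cohort. The long isotype arm held 22 of these 23 UMIs, so the exception was that of 1 arm. In the other direction, Trac, Cd3d and Cd3g in monocytes/macrophages stood at 0.0534% to 0.239% of their T cell level in both cohorts. The gates leave out cells with both Cd3e and the myeloid markers, which lowers this value. Ccl3, Ccl4 and Ccl5 in monocytes/macrophages stood at 26.1%, 28.0% and 9.17% of the T cell level in the long cohort, above those T cell genes. The short cohort had 95.3%, 50.6% and 7.25%, also above them. The part of free RNA and of doublets in these levels was not tested.

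**Figure D2:**
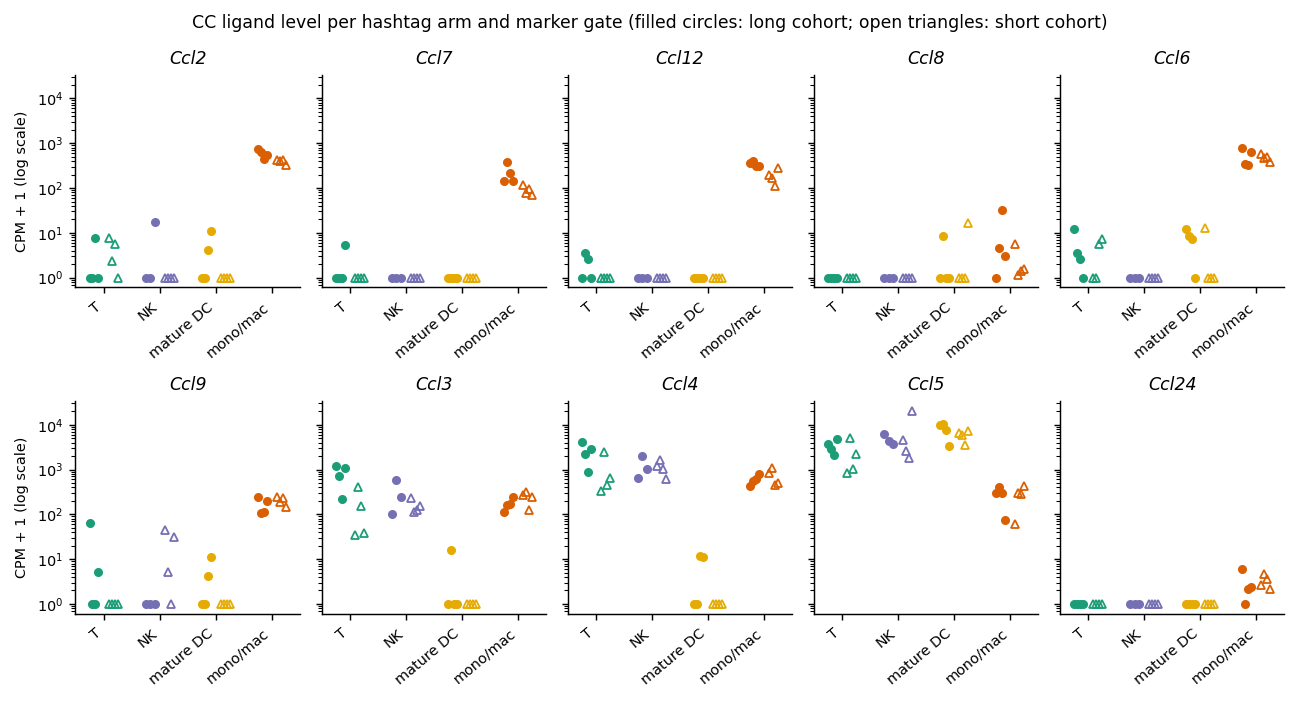
Level of each CC ligand (y axis, CPM + 1 on a log scale) per hashtag arm in the 4 gates. Each point is 1 arm with at least 5 cells in the gate, filled circles for the long and open triangles for the short cohort, so NK cells have 7 points and the other gates 8. Ccl2, Ccl7, Ccl12 and Ccl6 in monocytes/macrophages lay above every other gate without overlap, and Ccl5 in T cells, NK cells and mature dendritic cells lay above monocytes/macrophages.

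Ccl3 and Ccl4, neighbors that lie on opposite strands and attract leukocytes to inflamed tissue, were carried by lymphocytes and by monocytes/macrophages. T cells held Ccl4 at 4132, 2218, 893 and 2830.2 CPM in the long cohort and 326, 2472, 449.8 and 653 CPM in the short cohort. In monocytes/macrophages Ccl4 stood at 437, 557, 622 and 782 CPM in the long cohort and 815, 1105, 462 and 489 CPM in the short cohort. T cells were higher in 6 of 8 arms, the exceptions being the isotype and anti-MIF arms of the short cohort (edgeR, log2 fold change 0.97, SE 0.29, adjusted p = 0.0034). Ccl3 in T cells stood at 1175, 699, 215 and 1082 CPM in the long cohort and 34.0, 410.1, 149.9 and 37.7 CPM in the short cohort. The Ccl3 level of monocytes/macrophages was 112, 159, 173 and 238 CPM in the long cohort and 271, 319, 126 and 243 CPM in the short cohort. T cells were higher for Ccl3 in 6 of 8 arms as well, but the difference did not pass the test (edgeR, log2 fold change 0.68, SE 0.38, adjusted p = 0.11). It passed without the short isotype arm (adjusted p = 0.024) or without the short anti-PD-1/anti-MIF arm (adjusted p = 0.017), both with few Ccl3 UMIs in T cells.

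NK cells had 593, 636, 1965 and 1013 CPM of Ccl4 in the long cohort, the isotype value coming from 4 cells, and 1190.2, 1625, 1041 and 607 CPM in the short cohort. Their Ccl3 level ranged from 102 to 584 CPM over the 8 arms. In the 7 arms with at least 5 NK cells, neither gene differed from T cells beyond the spread (edgeR, Ccl4 log2 fold change -0.27, SE 0.33, adjusted p = 0.69, and Ccl3 log2 fold change -0.93, SE 0.50, adjusted p = 0.26). Among all genes, 12.7% were called, 5.79% as higher and 6.95% as lower in NK cells. Mature dendritic cells lacked both ligands almost wholly, with 2 UMIs of Ccl3 and 8 of Ccl4, so monocytes/macrophages were 146-fold higher for Ccl3 (95% counting interval 40.5 to 1208) and 121-fold higher for Ccl4. Thinned to 2000 UMIs per cell, T cells with a Ccl4 UMI made up 45.1% (54.4% unthinned) in the long and 36.3% (38.3% unthinned) in the short cohort, and monocytes/macrophages 29.6% (47.0% unthinned) and 27.8% (38.6% unthinned). Thinning left out cells below that depth. No thinned mature dendritic cell had a Ccl3 or Ccl4 UMI, at median depths before thinning of 8933 and 7410 UMIs against 5074.5 and 3965 in T cells.

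Ccl5, which draws T cells and monocytes, was carried by all 4 gates at very different levels. Mature dendritic cells held 10024, 10490.1, 7517 and 3427 CPM in the long cohort and 6405, 5889, 3456 and 7158 CPM in the short cohort. T cells held 3762, 2856, 2109.7 and 4819 CPM in the long cohort and 843, 4974, 1021 and 2255 CPM in the short cohort. Monocytes/macrophages held 297, 407, 304 and 73.9 CPM in the long cohort and 61.0, 299, 284 and 435 CPM in the short cohort. The lowest mature dendritic cell value lay above the highest value of monocytes/macrophages, and so did the lowest T cell value. Both differences held in 8 of 8 arms (edgeR, mature dendritic cells against monocytes/macrophages log2 fold change 4.61, SE 0.38, adjusted p = 7.1e-13, and T cells against monocytes/macrophages log2 fold change 3.27, SE 0.37, adjusted p = 7.9e-10). In the first of these comparisons, 62.1% of all genes were called, 24.5% as higher and 37.6% as lower in mature dendritic cells. Mature dendritic cells exceeded T cells in 7 of 8 arms, with the long anti-PD-1/anti-MIF arm as the exception, and this difference was not tested.

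NK cells had 2595, 6083, 4284 and 3802 CPM of Ccl5 in the long cohort, again with 4 isotype cells, and 4469, 2580.5, 1794 and 20744 CPM in the short cohort. The highest value, in the short anti-PD-1/anti-MIF arm, came from 7 cells with 683 UMIs, of which 1 cell held 239. NK cells were higher than T cells in 5 of 7 arms, which did not pass the test (edgeR, log2 fold change 0.97, SE 0.36, adjusted p = 0.078). The difference passed without the long anti-PD-1/anti-MIF arm (adjusted p = 0.014) or without the short anti-PD-1 arm (adjusted p = 0.024). After thinning, 92.0% (94.1% unthinned) and 81.4% (84.8% unthinned) of mature dendritic cells had a UMI in the long and short cohort. The share was 61.5% and 61.6% of T cells, 59.4% and 47.4% of NK cells, and 12.5% (24.0% unthinned) and 12.0% (18.1% unthinned) of monocytes/macrophages. NK cells numbered 34 and 102 and mature dendritic cells 102 and 46, so the shares of these 2 gates rest on few cells.

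Ccl24 was barely present, with 53 UMIs in the long and 63 in the short cohort. No UMI was counted in T cells, NK cells or mature dendritic cells. Monocytes/macrophages held 4, 0, 7 and 2 UMIs of Ccl24 in the arms of the long cohort and 6, 21, 7 and 2 in those of the short cohort. Most of the rest lay in ungated cells with Csf1r, Ms4a7, Fcgr1 or Adgre1, which held 38 of 40 ungated UMIs in the long and 26 of 27 in the short cohort. Ccl24 did not pass the filter on low counts in the reported fits, so no difference between arms was tested.

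The next question was whether the ligands followed the range from monocyte to macrophage. The monocyte/macrophage gate was divided by its own markers into cells with C1qb, a complement gene of tissue macrophages (503 in the long and 535 in the short cohort), and cells with Ly6c2, the marker of inflammatory monocytes, and no C1qb (321 and 1326). In C1qb+ cells Ccl7 stood at 268, 761, 267 and 264 CPM in the long cohort and 208, 154, 188 and 159 CPM in the short cohort. In Ly6c2+ cells it stood at 96.6, 66.7, 63.3 and 10.2 CPM in the long cohort and 68.8, 47.4, 48.5 and 33.1 CPM in the short cohort. C1qb+ cells were higher in 8 of 8 arms, and the 2 sets of values did not overlap (edgeR, log2 fold change 2.21, SE 0.21, adjusted p = 3.8e-07). Of the 7235 genes tested, 33.2% were called, 16.1% as higher and 17% as lower in C1qb+ cells. The C1qb+ level of Ccl12 was 1159, 788, 370.0 and 349 CPM in the long cohort and 490.0, 398, 252 and 835 CPM in the short cohort. Its level in Ly6c2+ cells was 62.6, 73.3, 109 and 266 CPM in the long cohort and 39.5, 66.4, 47.4 and 67.0 CPM in the short cohort. The Ccl12 difference also held in 8 of 8 arms, although the highest Ly6c2+ value, in the long anti-PD-1/anti-MIF arm, lay above the lowest C1qb+ value (edgeR, log2 fold change 2.69, SE 0.29, adjusted p = 1.4e-06). Of the 213 Ccl8 UMIs in the gate, 210 were in C1qb+ cells, which were higher in 6 of 8 arms and lower in 1. Most of these UMIs came from the 1 cell named above, and Ccl8 did not pass the filter on low counts in this fit.

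Ccl2 gave another picture from its cluster neighbors. In C1qb+ cells it stood at 642, 861, 408 and 613 CPM in the long cohort and 365, 349.8, 445 and 532 CPM in the short cohort. Ly6c2+ cells held 757, 435, 599 and 484 CPM in the long cohort and 459, 421, 397 and 258 CPM in the short cohort. The subsets overlapped, and the difference was not past the threshold (edgeR, log2 fold change 0.13, SE 0.15, adjusted p = 0.55). Ccl3 (log2 fold change 0.03, SE 0.10, adjusted p = 0.88) and Ccl4 (log2 fold change 0.14, SE 0.15, adjusted p = 0.53) were not called between subsets either. Ccl5 was higher in C1qb+ cells in 7 of 8 arms, with the long anti-MIF arm as the exception (edgeR, log2 fold change 0.71, SE 0.19, adjusted p = 0.0072), and the call was lost when cells in several gates were counted in each (adjusted p = 0.47), with a stricter HTODemux quantile (0.052) and with no arm block (0.23).

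The rodent ligands Ccl6 and Ccl9 lay lower in C1qb+ cells. The C1qb+ level of Ccl9 was 125, 129, 100.2 and 172 CPM in the long cohort and 210.2, 131, 167 and 97.5 CPM in the short cohort. Its Ly6c2+ values were 283, 86.3, 157 and 233 CPM in the long cohort and 265, 208, 257 and 158 CPM in the short cohort. C1qb+ cells were lower in 7 of 8 arms, the exception being the long anti-PD-1 arm (edgeR, log2 fold change -0.51, SE 0.12, adjusted p = 0.0029). C1qb+ cells held Ccl6 at 771, 364, 268 and 597 CPM in the long cohort and 457, 322, 509 and 231 CPM in the short cohort. Ly6c2+ cells held it at 803, 340.2, 550.5 and 682 CPM in the long cohort and 637, 541, 473 and 432 CPM in the short cohort. It was lower in C1qb+ cells in 6 of 8 arms (edgeR, log2 fold change -0.41, SE 0.12, adjusted p = 0.013). Without the long anti-MIF arm or without the short anti-PD-1 arm the adjusted p for Ccl6 was 0.051. With no arm block it was 0.22 for Ccl6 and 0.065 for Ccl9. The 4 markers of the neutrophil list, Csf3r, S100a8, S100a9 and Cxcr2, were all detected in both subsets. Their summed level in Ly6c2+ cells was 242, 120.5, 123 and 13662 CPM in the arms of the long and 724, 94.8, 1411 and 111 CPM in those of the short cohort. In C1qb+ cells it was 1136, 36.4, 25.5 and 157 CPM and 28.8, 67.8, 57.6 and 46.6 CPM. The list was thus higher in Ly6c2+ cells in 7 of 8 arms, most of all in the long anti-PD-1/anti-MIF arm, and lower in the long isotype arm, with S100a8 as its most abundant gene in both. Cxcr2, a neutrophil receptor, stood at 4.97 and 1.80 CPM in Ly6c2+ cells of the long and short cohort. These values pool the arms of a cohort, so they do not describe the long anti-PD-1/anti-MIF arm alone. Without the long anti-PD-1/anti-MIF arm the differences were as large, with log2 fold changes of -0.44 for Ccl6 (adjusted p = 0.016) and -0.52 for Ccl9 (adjusted p = 0.0069, edgeR). Inflammatory monocytes also express S100a8 and S100a9, and the part of neutrophils in the other arms was not tested.

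**Figure D3:**
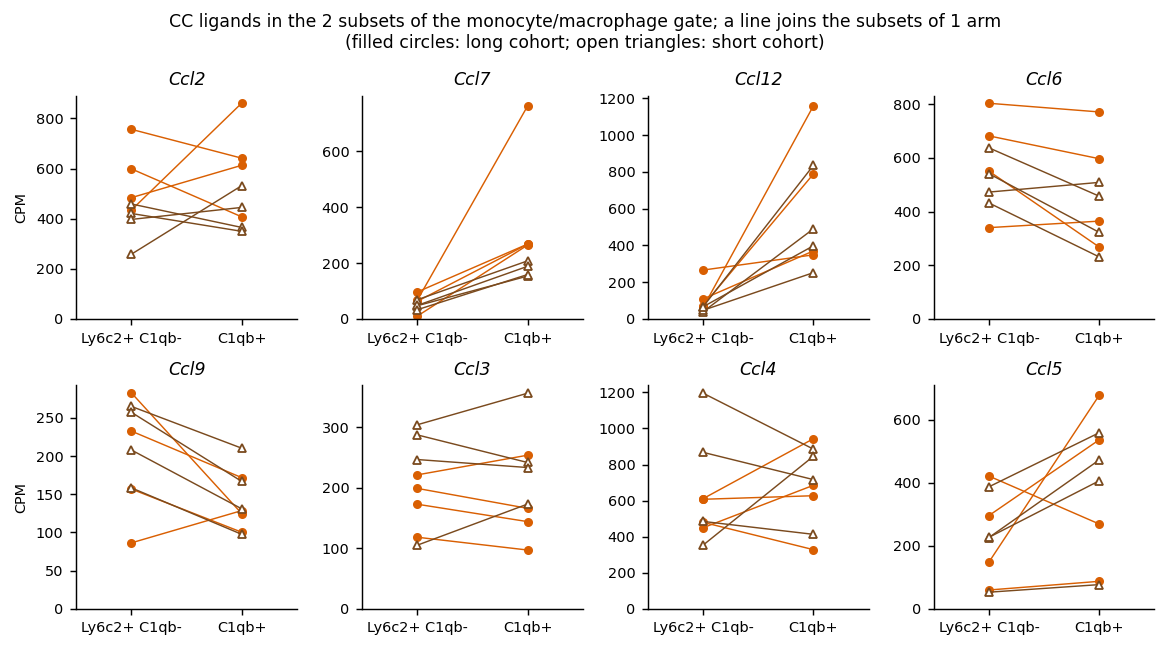
Level (y axis, CPM from 0) of 8 CC ligands in the Ly6c2+ C1qb- and C1qb+ cells of the monocyte/macrophage gate. Each line joins the 2 subsets of 1 arm, filled circles for the long and open triangles for the short cohort. All 8 lines rose toward C1qb+ cells for Ccl7 and Ccl12, 7 of 8 fell for Ccl9, and the lines crossed for Ccl2, Ccl3 and Ccl4.

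Some of these sums rested on 1 cell. In the long isotype arm, 56 of 58 Ccl7 UMIs of C1qb+ cells came from a single cell, and the level fell from 268 to 9.95 CPM without it. With the cell of most UMIs left out of each arm and subset, which was done after seeing the data, Ccl7 was higher in C1qb+ cells in 7 of 8 arms. Ccl12 remained higher in 8 of 8 arms, at 174 to 646 CPM in C1qb+ cells against 24.2 to 90.1 CPM in Ly6c2+ cells, with no overlap. Ccl5 was higher in 8 of 8 arms, and Ccl6 and Ccl9 lower in 7 of 8.

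T cells were divided in the same way into Cd8a+ Cd4- cells (193 in the long and 169 in the short cohort) and Cd4+ Cd8a- cells (27 and 35), so as to ask which T cells carried Ccl3, Ccl4 and Ccl5. In Cd8a+ cells Ccl4 stood at 4329, 2857, 1119.9 and 3025 CPM in the long cohort and 411, 3465, 615 and 1073 CPM in the short cohort. In Cd4+ cells, with 1 to 15 cells per arm, Ccl4 was 409, 0, 196 and 0 CPM in the long and 342, 0, 0 and 0 CPM in the short cohort. Over the 7 arms with at least 5 Cd4+ cells, Ccl4 was higher in Cd8a+ cells in 7 of 7, with 36 UMIs in the Cd4+ cells of these arms. The Ccl5 level in Cd8a+ cells was 3910.1, 3611, 2610.2 and 5142 CPM in the long cohort and 883, 5844, 1238 and 2929.8 CPM in the short cohort. Its Cd4+ values were 0, 47.0, 269.9 and 66.1 CPM and 547, 685, 1362 and 0 CPM in the same order. It was higher in Cd8a+ cells in 6 of 7 arms, with the short anti-MIF arm as the exception (122 UMIs in Cd4+ cells). Ccl3 was higher in 6 of 7 arms (32 UMIs in Cd4+ cells). The genes passed the filter on low counts through Cd8a+ cells, so no p is given for them. Of 1214 genes tested, 6.92% were called, 3.87% as higher and 3.05% as lower in Cd8a+ cells. The Cd4+ sums rest on few cells, which limits these comparisons.

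The ligands of monocytes/macrophages were concentrated in a small part of these cells. In monocytes/macrophages, the 83 of 824 cells with most UMIs of a gene held 91.6% of the Ccl7, 92.7% of the Ccl5 and 86.9% of the Ccl12 UMIs in the long cohort. The shares for Ccl2, Ccl3 and Ccl4 were 67.5%, 76.7% and 70.8%. Ccl6 and Ccl9 were the most even, at 51.4% and 51.8%. The receptors Csf1r and Ccr2, with 4352 and 3131 UMIs a depth within the range of these ligands, had 27.5% and 36.6% in as many cells. In the short cohort, 187 of 1861 cells held 100% of the Ccl7 UMIs, which were found in 9.24% of cells, and 28.7% of the Csf1r UMIs. The 17 cells richest in Ccl12 in the long cohort and the 22 in the short cohort held at least as many of its UMIs as all other monocytes/macrophages together. For Ccl7 it took 14 and 19 cells, and for Ccl6 79 and 204. In T cells, 8 and 5 cells held as much Ccl3 as all the others, and 13 and 8 cells as much Ccl4. Ccl5 was spread more evenly in mature dendritic cells than in monocytes/macrophages. It had 34.4% of its UMIs in 11 of 102 mature dendritic cells of the long and 36.6% in 5 of 46 of the short cohort. The Ccr2 share in monocytes/macrophages was 36.6% in the long and 35.6% in the short cohort.

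**Figure D4:**
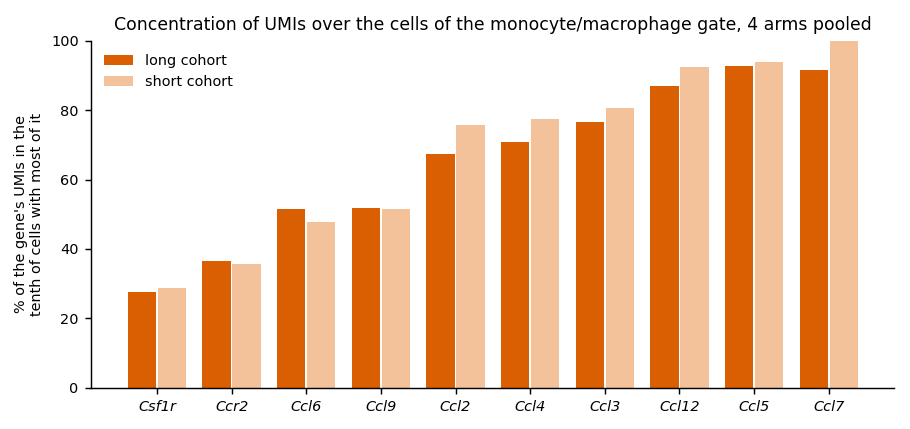
Percent of a gene's UMIs (y axis) that lay in the monocytes/macrophages with most of that gene, 83 of 824 cells for the long cohort (dark bars) and 187 of 1861 for the short cohort (light bars), with the 4 arms of a cohort pooled; Ccl8 and Ccl24, with few UMIs, are not drawn. All 8 ligands stood above the receptors Csf1r (27.5% and 28.7%) and Ccr2 (36.6% and 35.6%). The percent can rise as UMIs fall, and the genes were not matched in UMIs. In the short cohort Ccl7 had 1232 UMIs in 172 cells, fewer than the 187 counted, so its 100% was fixed, and Csf1r had 5470 UMIs.

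Several of the ligands were found together in single cells. Among monocytes/macrophages thinned to 2000 UMIs, 60.3% of cells with Ccl3 also had Ccl4 in the long cohort, against 23.0% of cells without Ccl3, and 61.9% against 20.0% in the short cohort. Cells with Ccl7 had Ccl12 in 55.7% against 12.4% of cells without Ccl7, and in 45.5% against 6.94% in the short cohort. Ccl12 was seen in 35.0% of cells with Ccl2 against 10.5% without, and in 20.8% against 5.34%. For Ccl9 in cells with and without Ccl6 the shares were 27.6% and 13.97% in the long cohort, compared with 35.8% and 18.6% of short-cohort cells. Across the clusters, Ccl12 was seen in 26.5% of cells with Ccl4 against 13.9% without it in the long cohort, and in 14.4% against 7.01% in the short cohort. Ccl7 was seen in 13.5% of cells with Ccl3 against 11.7% without it, and in 9.23% against 4.65%. In T cells, 85.1% of cells with Ccl3 had Ccl4 in the long cohort, against 28.3% of those without, and 86.7% against 29.3% in the short cohort. These shares describe cells of pooled arms, which are not replicates.

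Treatment was compared within the gates over the 8 arms, with cohort, anti-PD-1 and anti-MIF as additive terms and 4 residual degrees of freedom, since no arm had a replicate. In monocytes/macrophages, 0 of 9573 genes (0%) were called for anti-MIF by edgeR, with 652 at an unadjusted p under 0.05, and 0 (0%) for anti-PD-1, with 471. No ligand was called for either antibody. Ccl2, whose values by arm stand above, was lower with anti-MIF than without it in 4 of 4 pairs of arms. It was lower by 0.33 on the log2 scale (SE 0.14, unadjusted p = 0.038, adjusted p = 0.70 by edgeR), which failed the correction. Within C1qb+ cells Ccl2 was higher with anti-MIF in 2 of 4 pairs (log2 fold change -0.12), and within Ly6c2+ cells in 1 of 4 (-0.31). With anti-PD-1, Ccl3 and Ccl4 were higher in 4 of 4 pairs, and these too failed the correction (edgeR, Ccl3 log2 fold change 0.51, SE 0.26, adjusted p = 0.93, and Ccl4 log2 fold change 0.35, SE 0.27, adjusted p = 0.95). The other members had log2 fold changes from -0.48 to 0.58 for anti-MIF and, Ccl8 aside, from -0.30 to 0.46 for anti-PD-1. For Ccl8 with anti-PD-1 the value was -2.78 (SE 1.00, adjusted p = 0.93), and the cell named above holds most of its UMIs. Within Ly6c2+ cells Ccl7 was lower in 4 of 4 pairs with each antibody (log2 fold change -0.83 for anti-MIF and -0.81 for anti-PD-1). Ccl12 was higher there in 4 of 4 pairs with each (0.68 and 0.81). None of these was called by edgeR, where 505 and 302 of 8396 genes had an unadjusted p under 0.05 for anti-MIF and anti-PD-1.

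For Ccl3 and Ccl4 in monocytes/macrophages the anti-MIF arms went opposite ways in the 2 cohorts. They were higher than their partner arms in both pairs of the long cohort, as in 782 against 557 CPM of Ccl4 with anti-PD-1, and lower in both pairs of the short cohort, as in 489 against 1105 CPM. The test of this difference between cohorts gave log2 fold change 1.55, SE 0.22, adjusted p = 0.071 for Ccl4 and log2 fold change 1.40, SE 0.27, adjusted p = 0.14 for Ccl3 by edgeR, where 2 of 9573 genes (0.0209%) were called and 996 had an unadjusted p under 0.05. Without the long anti-MIF arm the adjusted p for Ccl4 was 0.010, and without the long anti-PD-1/anti-MIF arm it was 0.0075 for Ccl4 and 0.043 for Ccl3. In the short anti-MIF arm 1 cell held 304 of 1212 Ccl4 UMIs.

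In T cells, anti-MIF had 2 of 5244 genes called (0.0381%) and anti-PD-1 had 0 (0%), with 211 and 197 at an unadjusted p under 0.05 by edgeR. Ccl5 in T cells was higher with anti-PD-1 in 3 of 4 pairs (edgeR, log2 fold change 1.11, SE 0.31, adjusted p = 0.99, unadjusted p = 0.0033), and the adjusted p was 0.020 without the long anti-PD-1 arm. Ccl4 was higher with anti-MIF in 2 of 4 pairs, with a fitted log2 fold change of -1.15 (SE 0.39, unadjusted p = 0.012, adjusted p = 1.0 by edgeR). No member was called for either antibody in T cells, and for anti-MIF no gene in all was called lower. The anti-MIF difference between cohorts was called for 0 of 5244 genes (0%) in T cells by edgeR, with 354 at an unadjusted p under 0.05. The T cell sums held 33 to 168 cells per arm.

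Long and short cohorts were compared in the same fit. A cohort differed in day, number of doses and library at once, and these cannot be told apart. In monocytes/macrophages 7.78% of 9573 genes were called, 3.43% as higher and 4.36% as lower in the long cohort. By edgeR, 2668 had an unadjusted p under 0.05, so differences between the cohorts were common. Ccl2, Ccl7 and Ccl12 were higher in the long cohort in 4 of 4 treatments, without overlap between the arms of the cohorts. The share of all genes that lay without overlap was not counted. The values were log2 fold change 0.56, SE 0.14, adjusted p = 0.042 for Ccl2, log2 fold change 1.31, SE 0.29, adjusted p = 0.033 for Ccl7 and log2 fold change 0.90, SE 0.22, adjusted p = 0.043 for Ccl12 (edgeR). None of the other members was called, with Ccl3 at -0.46, Ccl4 at -0.20, Ccl6 at 0.15 and Ccl9 at -0.28 on the log2 scale. Ccl5 stood at 0.14, and Ccl8 at 2.58 (SE 1.00, adjusted p = 0.13 by edgeR). Ccl8 was higher in the long cohort in 3 of 4 treatments. The 1 cell named above held 144 of its 193 UMIs in this gate of the long cohort, and no fit without that cell was run.

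These 3 calls were close to the threshold, and leaving out 1 arm mostly ended them. Ccl2 was called only in the fit without the long anti-MIF arm (adjusted p from 0.034 to 0.16 over the 8 fits by edgeR). Ccl7 kept its call without the long isotype, the long anti-PD-1/anti-MIF or the short isotype arm, and lost it without any other (0.0099 to 0.13). Ccl12 kept it without the short isotype or the short anti-PD-1/anti-MIF arm alone (0.040 to 0.13). Single cells mattered too. In the long isotype arm 216 of 286 Ccl12 UMIs came from 1 cell, and in the short anti-PD-1/anti-MIF arm 305 of 477. With the cell of most UMIs left out of each arm (after seeing the data), the long and short arms overlapped, at 401 to 607 against 265 to 405 CPM for Ccl2, 73.7 to 292 against 42.0 to 101 CPM for Ccl7 and 92.1 to 335 against 96.9 to 146 CPM for Ccl12.

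The make-up of the gate differed between arms and cohorts. With arms pooled, C1qb+ cells made up 61.0% of monocytes/macrophages in the long cohort (503 of 824) and 28.7% in the short cohort (535 of 1861), and the long anti-MIF arm alone gave 488 of the 824 cells. Thinned to equal depth, the shares with C1qb were 55.0% and 23.1%. By arm the C1qb+ share was 28.0%, 44.4%, 73.0% and 53.1% in the long cohort, compared with 35.5%, 26.0%, 30.3% and 23.4% in the short cohort, so it was higher in the long cohort in 3 of 4 treatments and lower in the isotype pair. Within C1qb+ cells, where 0.0527% of genes were called higher and 0.0659% lower in the long cohort, the log2 fold changes were 0.54 for Ccl2 (adjusted p = 0.25), 1.04 for Ccl7 (0.14) and 0.30 for Ccl12 (0.75) by edgeR. Within Ly6c2+ cells, where 2.74% were called higher and 2.83% lower, they were 0.57 for Ccl2 (adjusted p = 0.048), 0.20 for Ccl7 (0.70) and 1.07 for Ccl12 (0.044). The highest Ly6c2+ value of Ccl12, in the long anti-PD-1/anti-MIF arm, leaned on a single cell. With the cell of most UMIs left out of each arm and subset, no Ly6c2+ value exceeded 90.1 CPM, and no fit without these cells was run. For Ccl7, C1qb+ cells were higher in the long cohort in 4 of 4 treatments without overlap, and Ly6c2+ cells in 3 of 4, with neither difference past the threshold. The C1qb+ value of the long isotype arm came mostly from a single cell. Without that cell it stood at 9.95 CPM, below every arm of the short cohort, so the lack of overlap rested on it.

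In T cells, 7.28% of 5244 genes were called, 3.6% as higher and 3.68% as lower in the long cohort. Ccl3 was higher in the long cohort in 4 of 4 treatments (edgeR, log2 fold change 2.22, SE 0.53, adjusted p = 0.025) and Ccl4 in 3 of 4 (log2 fold change 1.55, SE 0.40, adjusted p = 0.036). Ccl5, higher in 3 of 4, was not called (log2 fold change 0.80, SE 0.31, adjusted p = 0.14). The exception for Ccl4 and Ccl5 was the anti-PD-1 arm, whose short cohort levels were the highest of their cohort. The Ccl3 call was lost without the long isotype, long anti-PD-1/anti-MIF, short isotype or short anti-PD-1/anti-MIF arm (adjusted p from 0.065 to 0.15), and the Ccl4 call without each of those or the short anti-MIF arm (0.081 to 0.21). Both calls were also lost with DESeq2 (adjusted p = 0.11 for Ccl3 and 0.12 for Ccl4). The same held with cells of several gates counted in each (edgeR, adjusted p = 0.054 and 0.089). Ccl4 lost its call as well with gates at 2 UMIs (edgeR, 0.060) and with MULTIseqDemux (edgeR, 0.051). Ccl5 was called without the long anti-PD-1 (0.012) or the short anti-PD-1 arm (0.022). Cd8a+ cells were 76.6% of T cells in the long cohort (193 of 252) and 58.9% in the short cohort (169 of 287). Within Cd8a+ cells, where 2.4% of genes were called higher and 2.28% lower, the log2 fold changes were 1.73 for Ccl3 (adjusted p = 0.035), 1.16 for Ccl4 (0.052) and 0.67 for Ccl5 (0.15) by edgeR. Each of these genes was higher in Cd8a+ cells of the long cohort in 3 of 4 treatments. In the long anti-PD-1/anti-MIF arm, 161 of 252 Ccl3 UMIs of T cells came from 1 cell, and the level without it was 414 CPM.

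**Figure D5:**
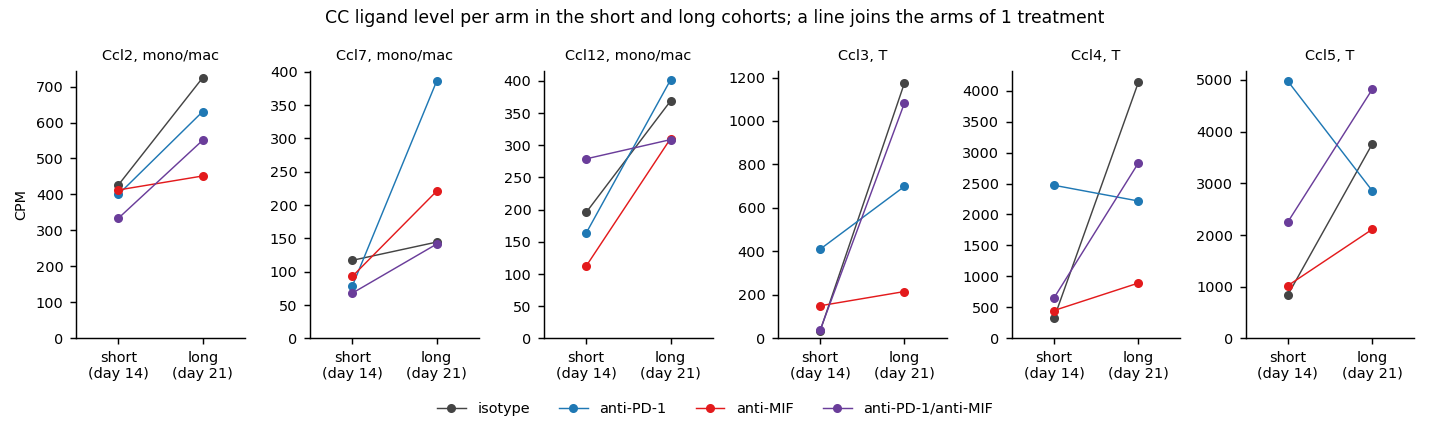
Level (y axis, CPM from 0) of Ccl2, Ccl7 and Ccl12 in monocytes/macrophages and of Ccl3, Ccl4 and Ccl5 in T cells, in the short cohort (day 14) and the long cohort (day 21). Each point is 1 arm and each line joins the arms of 1 treatment. All 4 lines rose from short to long for Ccl2, Ccl7, Ccl12 and Ccl3, and the anti-PD-1 line fell for Ccl4 and Ccl5.

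Cells outside the gates carried a part of the ligands, of which some came from few cells. In the short cohort, 2 cells with basophil or mast cell markers (Mcpt8, Cpa3 or Ms4a2) held 272 of 487 ungated Ccl7 UMIs, 567 of 3692 Ccl4 UMIs, 165 of 949 Ccl3 UMIs and 145 of 911 Ccl2 UMIs. Cells with Siglech, a marker of plasmacytoid dendritic cells, numbered 42 in the long and 44 in the short cohort and held 701 of 1483 and 896 of 3692 ungated Ccl4 UMIs. In the long cohort, 16 cells with fibroblast markers held 119 of 267 ungated Ccl7 UMIs. Cells with Csf1r, Ms4a7, Fcgr1 or Adgre1 that missed the gate held 363 of 420 and 724 of 911 ungated Ccl2 UMIs. For Ccl5, 63 cells of the long cohort without any of the markers searched held 1008 of 1508 ungated UMIs, and 67 cells of the short cohort with NK markers but no Ncr1 held 1355 of 2109.

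Of 10 other CC ligands, 2 had counts enough for the comparison of gates. Ccl1, a CCR8 ligand of activated T cells, was at 85.6 CPM in T cells over the arms (241 UMIs) and at 0 UMIs in monocytes/macrophages. Ccl22, a CCR4 ligand of dendritic cells, was higher in mature dendritic cells than in monocytes/macrophages, at 975 and 775 CPM against 5.17 and 0.512 CPM in the long and short cohort. Neither gate comparison called any other gene of the list. In monocytes/macrophages Ccl22 had 48 UMIs in the long and 7 in the short cohort. It passed the filter on low counts through the long cohort, so no p is given for this difference. Its levels there stood at 0.531% and 0.0661% of those in mature dendritic cells. Mature dendritic cells were 6.10% of long and 1.47% of short cells, and the part of free RNA in these levels was not tested. Ccl17 and Ccl25, the other genes of the list tested between cohorts, were not called (edgeR).

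Of the CC receptor genes, Ccr1, Ccr2 and the atypical receptor Ccrl2 were compared between gates. All 3 were lower in T cells than in monocytes/macrophages. Ccr1 had 21 UMIs in T cells against 5530 and passed the filter on low counts through monocytes/macrophages, so its call supports nothing. The log2 fold changes were -2.73 for Ccr2 and -2.42 for Ccrl2 (edgeR), where 34.6% of all genes were called lower and the median over all genes was -0.02. The 3 genes were lower in mature dendritic cells as well, where Ccr1 had 0 UMIs and Ccr2 had 1, against 5530 and 8351 in monocytes/macrophages. In NK cells, Ccr2 was higher than in T cells (edgeR, log2 fold change 1.97, SE 0.25, adjusted p = 2.5e-07) and Ccrl2 was lower (log2 fold change -2.24, SE 0.67, adjusted p = 0.019). Between C1qb+ and Ly6c2+ cells, Ccr2, the receptor of Ccl2 and Ccl12, was not called (edgeR, log2 fold change -0.04, SE 0.09, adjusted p = 0.78), nor was Ccr1, the receptor of Ccl6 and Ccl9 (log2 fold change 0.24, SE 0.09, adjusted p = 0.057). None of these 3 genes was called in monocytes/macrophages for anti-MIF, anti-PD-1 or cohort by edgeR.

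Of 9 genes of the NF-kB and interferon inputs that are known to act on these ligands, all 9 were tested between gates. In T cells against monocytes/macrophages Tnfaip3, an NF-kB inhibitor, was higher, and Irf7 and Nfkbia were lower (edgeR), where 67.6% of all genes were called. Ifng, the type II interferon, was also higher (log2 fold change 9.56) and Il1b lower (-7.38). Ifng and Il1b passed the filter on low counts mostly through the gates where they are high, so their calls support nothing. The median log2 fold change of the 9 genes was -0.20 beside -0.02 over all genes. In NK cells against T cells 0 rose and 3 fell (Ifng, Tnf and Tnfaip3), where 12.7% of all genes were called. In mature dendritic cells against monocytes/macrophages 4 rose (Nfkb1, Rela, Nfkbia and Tnfaip3) and 3 fell (Il1b, Irf7 and Tnf), where 62.1% were called. Between C1qb+ and Ly6c2+ cells, 3 NF-kB genes were lower in C1qb+ cells (Nfkbia -0.99, Rela -0.59 and Nfkb1 -0.55 on the log2 scale), and no input gene was higher there, where 17% of all genes were called lower. Of 8 tested in monocytes/macrophages, 0 were called for either antibody, where 0% of all genes were called. In the long cohort 1 was higher there (Irf7) and 1 lower (Nfkb1), where 3.43% of all genes were called higher and 4.36% lower. In T cells of the long cohort 1 of 8 was higher (Ifng, edgeR, log2 fold change 1.31, SE 0.32, adjusted p = 0.029) and 1 lower (Nfkb1, log2 fold change -0.98, SE 0.18, adjusted p = 0.007). Of all genes, 3.6% were called higher and 3.68% lower in that comparison.

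The genes most like each ligand over the 31 sums of gate and arm, by Spearman's rho of log2(CPM + 10), were named as a description. The sums share arms, libraries and depth, and no p is given. Ccl12 was closest to Sirpb1a (rho 0.96), Clec4a3 (0.92) and Rhov (0.91), and Ccl7 to Rhov (0.94), Ms4a7 (0.93) and Clec4a1 (0.93). Ccl2 was closest to Hp (0.90), Trem1 (0.87) and Cfp (0.86), so it had none of its nearest genes in common with Ccl7 and Ccl12. Ccl3 and Ccl4 were each other's nearest gene (0.87). Ccl5 was nearest to Rras2 (0.88), Rnaset2b (0.87) and H2-Q6 (0.86), Ccl6 to Tlr2 (0.87), Ier3 (0.87) and Slfn4 (0.85), and Ccl9 to Adgre1 (0.85), Mgst1 (0.82) and Gm9733 (0.82).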

How the data were processed

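Single-cell RNA of sorted and recombined tumor cells was measured with the 10x Genomics 5′ kit in 2 pooled libraries, 1 per cohort, each with a hashtag library. The authors deposited UMI counts per gene and cell barcode, made with Cell Ranger 7.1.0 on mm10, with no normalization, and hashtag counts beside them. The submitters' processing notes also name Seurat 5.1.0, R 4.3.2 and DESeq2. Barcodes were assigned with HTODemux (Seurat 5.3.0, R 4.3.3, quantile 0.99), and hashtag doublets (425 long, 626 short) and negatives (24 and 176) were removed. Cells with 200 to 5000 genes and at most 5% mitochondrial UMIs were kept, as in the study's methods. These state that 1671 cells were left, without naming a cohort, and the long cohort here had that number. Doublets of 2 cells of 1 arm were not removed, and free RNA was not subtracted. A 5th hashtag was left out of every comparison. Some members of the receptor and input lists are not reported here.

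UMIs were summed per arm and gate of at least 5 cells and tested with edgeR 4.0.16 (quasi-likelihood, filterByExpr, TMM) over all genes passing the filter, with Benjamini-Hochberg adjustment at 0.05. Gates and subsets were compared with the arm as a block. The genes that define a gate or subset were left out of the tests. Ccl8 and Ccl24 did not pass the filter between gates. Members of the lineage comparisons passed mostly through the gate where they are high. Each p-value measures the spread between arms, each 1 hashtagged sample. The scripts were tested on simulated data. Detection was compared on cells thinned to 2000 UMIs. Bounds against a count of 0 use 3 UMIs over the gate. Alternatives were DESeq2 1.42.0, no filter, other gates and demultiplexing (MULTIseqDemux, quantile 0.999), thinned cells, no arm block, and each arm left out. The 10 members, the lists of ligands, receptors and inputs, and the rule for like genes (the 3 of highest rho) were chosen with earlier results of these data known. Promoters and motif shares were taken from RefSeq (GRCm38.p6), and gene positions from the annotation of GRCm38, the build that mm10 names. Python 3.11.15, numpy 2.4.6, scipy 1.17.1 and matplotlib 3.10.9 were used for sums, intervals and plots.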

Additional observations from a re-analysis of the deposited data

Results flagged for a closer look

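The anti-MIF difference in monocytes/macrophages went opposite ways in the 2 cohorts for 2 ligands. For Ccl4 the difference between cohorts was 1.55 on the log2 scale (adjusted p = 0.071 by edgeR), and for Ccl3 it was 1.40 (adjusted p = 0.14). Every anti-MIF arm of the long cohort stood above its partner arm, and every one of the short cohort below, with 2 pairs per cohort.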

How the results depend on the processing

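Over 83 results for single ligands and 1554 alternatives, 1464 kept their direction and side of the threshold or were called in neither setting (92 of these changed sign without being called), 33 passed the threshold where the reported fit did not, 57 lost it, and 0 called values changed sign. Counts of ligands called moved as follows, each with the genes called of all tested in the same fit. Most ligands between T or mature dendritic cells and monocytes/macrophages, and those between Cd8a+ and Cd4+ cells, passed the filter through the gate where they are high, so their counts support nothing. They were 4 with thinned cells (1276 of 1814 genes) against 7 (3074 of 4544) for T cells, 5 (1137 of 1814) against 8 (2824 of 4544) for mature dendritic cells, and 1 with gates at 2 UMIs (24 of 2373) against 3 (84 of 1214) for Cd8a+ cells. For NK cells against T cells (0 as reported), no filter on low counts gave 2 (985 of 19500), thinned cells 1 (245 of 1814) and counting cells of several gates in each 1 (573 of 4840). For the anti-MIF difference between cohorts in monocytes/macrophages (0 as reported), DESeq2 gave 2 (45 of 9573; Ccl3 with adjusted p = 0.013, Ccl4 with 9.5e-06), no filter 4 (279 of 18164) and thinned cells 1 (8 of 6634). No filter gave 3 for anti-MIF (37 of 14909) and 3 for anti-PD-1 (41 of 14909) in T cells, with 0 as reported. For long against short T cells (2 as reported), no filter gave 4 (548 of 14909), DESeq2 0 (202 of 5244), counting cells of several gates in each 0 (287 of 5815), gates at 2 UMIs 1 (252 of 5585), MULTIseqDemux 1 (396 of 5456) and only Cd8a+ cells 1 (220 of 4703). Only C1qb+ cells gave 0 (9 of 7591) for long against short monocytes/macrophages (3 as reported). These restrictions to subsets were chosen after seeing the data. No arm block gave 2 (1975 of 7235) for C1qb+ against Ly6c2+ cells (5 as reported). The share of Ccl6 UMIs in monocytes/macrophages was 72.3% with thinned cells (80.5%), and that of Ccl9 81.7% with gates at 2 UMIs (86.7%). With 1 arm left out, the counts ranged from 0 to 1 for NK cells, 4 to 5 for C1qb+ cells, 0 to 2 for long against short monocytes/macrophages, 0 to 2 for the anti-MIF difference between cohorts, 0 to 1 for anti-PD-1 in T cells and 0 to 3 for long against short T cells, and stayed at 0 for both antibodies in monocytes/macrophages and for anti-MIF in T cells. The causes were not tested. No paired analysis was possible because the labels number no replicates; the arm block pairs gates within an arm. NK cells (34 and 102), mature dendritic cells (102 and 46) and Cd4+ T cells (27 and 35) were few, which limits the comparisons that use them.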

Other observations

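A 5th hashtag, named for anti-PD1, MIF and DDT in the hashtag tables and not listed among the treatments of the sample labels, marked 322 cells of the long and 993 of the short cohort. Its monocytes/macrophages (229 and 649 cells) held 721 and 283 CPM of Ccl2, 1183 and 692 CPM of Ccl4, 151 and 43.6 CPM of Ccl7 and 530.2 and 572 CPM of Ccl6. Ccl2 and Ccl7 in the short cohort lay below the lowest of the 8 labelled arms (334 and 67.8 CPM), and Ccl4 in the long cohort above the highest (1105 CPM). Ccl12 stood at 89.0 and 66.8 CPM, below the lowest of the 8 labelled arms (112 CPM). Ccl24 in the short cohort stood at 8.99 CPM from 41 UMIs, above the highest of them (5.16 CPM). These are values of 1 sample per cohort, and they were not tested.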
